A study of Sus scrofa with 50 samples.

Results

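The Korean minipig transcripts described here carry no sign of a protein in the authors' annotation: the table lists no Swiss-Prot match of the transcript (BLASTX), no Swiss-Prot match of a predicted peptide (BLASTP) and no predicted peptide, in any row of the transcript. They number 14432 of the 57085 transcripts measured (25.3%). The other 42653 transcripts are 36554 with a Swiss-Prot match and 6099 with a predicted peptide but no match. RNA was sequenced from 5 tissues, named backfat, brain, loin, lymph and tenderloin, of 5 pigs (Sus scrofa) of the ET type (S0235, S0242, S0276, S0309 and S0326) and 5 of the L type (S0349, S0355, S0377, S0384 and S0385), with 1 library per animal and tissue. The names of the types and animals are those of the labels. The backfat, loin and brain libraries of S0355 and the lymph and brain libraries of S0235 were left out, because the rule that defines these transcripts leaves them out, and 45 of 50 libraries remained, with 4 or 5 animals per type and tissue.

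Transcripts without a recognisable protein are a mixed class in any assembly made without a genome. Some are long noncoding RNAs, which act as RNA, are often scarcer than messenger RNAs and are often confined to few tissues. Others are untranslated ends, introns or fragments of messenger RNAs, transcripts of mobile elements such as LINE-1, or carriers of small RNAs. The kit used here selects RNA with a poly(A) tail, so RNAs without a tail are poorly captured. The annotation does not tell which kind a given transcript is, and no transcript sequence or genome position was used here, so each is called by the tissue and type of the assembly it came from and its node number.

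These transcripts were short. Their lengths, read from the transcript names, had a median of 1128 bases (quartiles 589 and 2019, range 134 to 15143), against 3062 bases for the other transcripts. They made up 25.3% of the transcripts and 12.5% of the assembled bases. Of the 922 transcripts below 300 bases, 863 were without protein hit or peptide (93.6%), and the share fell with each length class to 367 of 9670 at 5000 bases or more (3.80%). Length is tied to the way they were chosen, since the shortest predicted peptide in the table spans 261 bases. The longest was Lung.ET.NODE_81 with 15143 bases, followed by Loin.ET.NODE_249 with 13314 and Brain.L.NODE_1394 with 12313. Lung.ET.NODE_81 did not exceed 4.12 TPM in any library and Loin.ET.NODE_249 not 8.34, while Brain.L.NODE_1394 reached 23.1 TPM in brain. TPM (transcripts per 1000000) is a share of the library's transcripts after division by length, so levels of different transcripts can be set side by side.

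**Figure D1:**
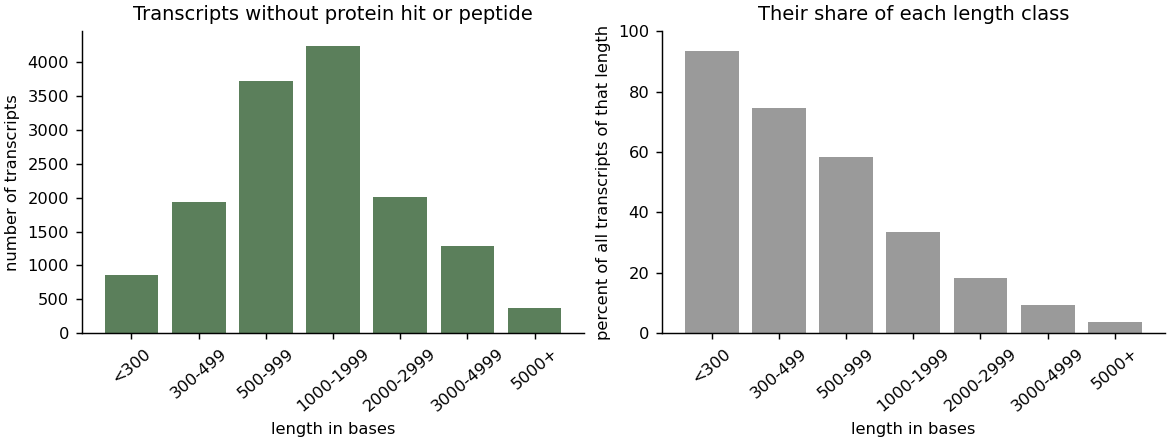
Left, number of transcripts without protein hit or predicted peptide by length in bases; right, their percent of all transcripts of that length. The share drops from 93.6% below 300 bases to 3.80% at 5000 bases or more.

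They did not come evenly from the 20 tissue and type assemblies. The L kidney assembly contributed 1895 of its 4825 transcripts (39.3%) and the L lung assembly 2303 of 6437 (35.8%), while the ET loin assembly contributed 323 of 1829 (17.7%) and the ET heart assembly 205 of 1160 (17.7%). Assemblies of the 5 tissues that are not measured here (heart, kidney, liver, lung and spleen) gave 8525 of the 14432 (59.1%). L assemblies gave 9289 (27.3% of the transcripts from L assemblies), and ET assemblies 5143 (22.3%). The assembler's own coverage, written in the names, had a median of 59.7 for these transcripts and 132 for the others.

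Few of them share an assembly locus with something named. The names group transcripts of 1 assembly into loci, and 541 of the 14432 (3.75%) shared a locus with a transcript of the other class. For 465 that locus also held a named protein at an E value of at most 1e-10, and for 34 of these a named entry was the ORF2 protein of LINE-1, a mobile element that copies itself through RNA. The remaining 13891 stood in loci of their own class, and 96 loci held more than 1 of them. The table also holds no entry for them in its columns for protein domains (Pfam), noncoding RNA families (Infernal) and orthologous groups (eggNOG). How many other transcripts have an entry in these columns is not given here. As they were chosen for having no match and no peptide, this is not counted as separate evidence.

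The 5 libraries left out stood apart in their marker genes, and those labelled backfat, loin and lymph lacked the level of markers of their labelled tissue. The S0355 backfat library held 84.6 TPM of 5 adipocyte genes (478 to 17913 in the kept backfat libraries) and 65283 of 7 skeletal muscle genes (4.32 to 225), while the S0355 loin library held 12402 TPM of the adipocyte genes (7.05 to 52.5 in the kept loins) and 21.4 of the muscle genes (47889 to 97928). In the left-out brain samples, S0235 had 18.7 and S0355 26.2 TPM of the pituitary hormone genes, and 42707 and 68638 of the myelin and astrocyte genes, the reverse of the kept brain libraries described next. The S0235 lymph library held 16.1 TPM of the T and B cell genes (1526 to 2244 in the kept lymph libraries) and 2591 of the listed kidney genes (0.665 to 5.09). A value given with all libraries includes these.

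The kept libraries also differ in ways that bear on the values. The backfat library of S0377 (L) held 4345 of these transcripts at 1 TPM or more, against 7065 to 8391 in the other backfat libraries of the L type and 7272 to 8074 in those of the ET type. It was also lowest for the other transcripts, with 18533, against 22684 to 25844 in L and 26130 to 27778 in ET. Libraries labelled brain carried high levels of anterior pituitary hormone transcripts, with 3 of 6 listed genes matched (POMC, PRL and CGA) and summed levels of 20971 to 82994 TPM, and low levels of myelin and astrocyte transcripts (3 of 4 matched, 42.7 to 121 TPM). The summed levels of the other marker lists were highest in the matching tissue: adipocyte genes (5 of 5 matched) in backfat, T and B cell genes (6 of 6) in lymph and skeletal muscle genes (7 of 7) in loin and tenderloin. Read depth cannot be recovered from TPM and is unknown, so precision here means the spread between animals. In bulk tissue, fewer cells of a kind and less RNA per cell cannot be told apart.

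Most of these transcripts were measured at low levels. Over the 45 libraries, 10137 of 14432 had a mean of at least 1 TPM (70.2%), against 78.5% of the other transcripts, 1210 had at least 10 and 56 at least 100. The median of the means was 1.87 TPM, against 3.13 for the others. In every kept library 1002 of them reached 1 TPM, as did 9106 of the others, while 76 were listed at 0 throughout.

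A small number of transcripts carried much of the signal. Brain.L.NODE_166735 (743 bases) was the first or the second most abundant in each of the 5 tissues. In backfat its lowest, median and highest values over 9 libraries were 2961, 4876 and 9459 TPM, in brain 2533, 3187 and 4151 TPM over 8 libraries, and in lymph 3064, 4957 and 6971 TPM over 9. In loin they were 1648, 2677 and 3560 TPM over 9 libraries and in tenderloin 1954, 2682 and 4101 over 10. The 4 backfat libraries of the L type (5845 to 9459 TPM) all lay above the 5 of the ET type (2961 to 4876), whereas the types overlapped in the other 4 tissues.

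Spleen.ET.NODE_115720 (433 bases) was the most abundant of all in lymph and low in muscle. Its lymph values had a lowest of 1504, a median of 7791 and a highest of 14909 TPM, a mean of 8200 ± 4617 (SD, n = 9). In loin it ranged from 25.1 to 401 TPM and in tenderloin from 92.2 to 804. S0276, an ET animal, had the lowest value of this transcript in every tissue: 1504 TPM in lymph, 739 in backfat, 526.2 in brain, 92.2 in tenderloin and 25.1 in loin.

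Loin.ET.NODE_46163 (1418 bases) was a muscle transcript. It averaged 6501 ± 3171 TPM in loin (SD, n = 9), which is 11.9% of all TPM in this class of transcripts there, and 3263 ± 1544 in tenderloin (n = 10), and did not exceed 13.2 TPM in any backfat, brain or lymph library. Its assembly locus also holds transcripts matched to KANL2, a subunit of a chromatin acetylation complex, and to the ORF2 protein of LINE-1. Loin.ET.NODE_45068 (1463 bases) of a locus with the same entries averaged 1139 ± 379 TPM in loin. Heart.ET.NODE_24741 (2797 bases), from another locus with an ORF2 entry, averaged 1919 ± 1283 in loin and 1685 ± 954 in tenderloin. Of the 5 most abundant in loin, 3 thus came from loci with an ORF2 entry, which only 34 of the 14432 have. Loin.ET.NODE_46163 and Loin.ET.NODE_45068 come from the same assembly with the same entries and may share a locus. The 3 are therefore not counted as separate cases. Whether abundant transcripts of the other class also come from loci with an ORF2 entry was not tested.

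Spleen.ET.NODE_100070 (496 bases) was listed at 0 in 2 animals and present in every kept library of the rest. It was listed at 0 in all 3 kept libraries of S0235 (ET) and in all 5 of S0349 (L). In the other 8 animals its lymph values were 938, 367, 991 and 1292 TPM in the ET animals S0242, S0276, S0309 and S0326 and 539, 882, 1561 and 2747 in the L animals S0355, S0377, S0384 and S0385. In their backfat libraries it lay between 19.98 and 327 TPM, in loin between 3.53 and 23.6 and in tenderloin between 8.35 and 58.9. The animals that lack it are 1 of each type, so it does not separate the types.

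**Figure D2:**
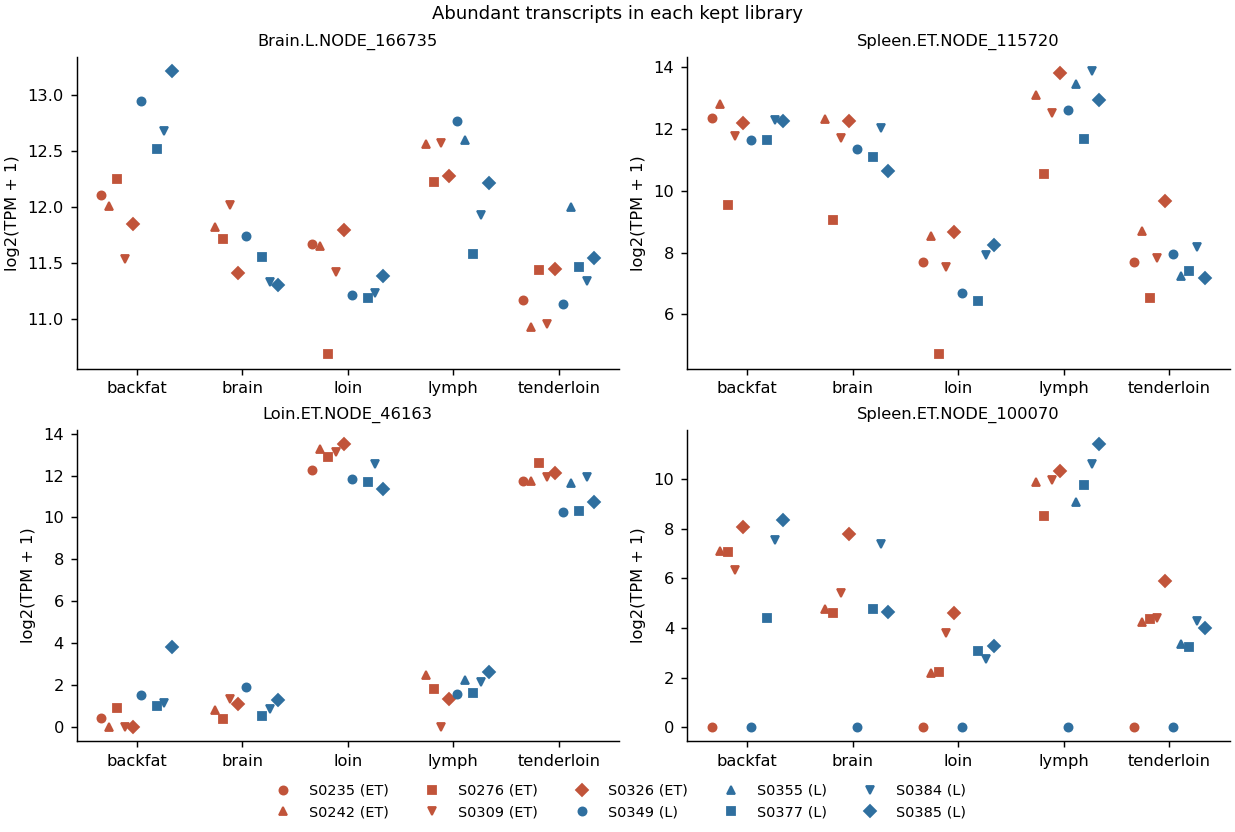
log2(TPM + 1) of 4 abundant transcripts in each kept library, by tissue; each symbol is 1 animal, red for ET and blue for L. Loin.ET.NODE_46163 is high in both muscles only, and Spleen.ET.NODE_100070 is at 0 in every library of S0235 and S0349.

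The class took between 3.82% and 12.2% of a library's TPM (median 7.90% over 45 libraries). The share was highest in brain, at 10.8% ± 0.87 (SD, n = 8), then lymph at 9.59% ± 1.46 (n = 9) and backfat at 8.88% ± 1.82 (n = 9), and lowest in loin at 5.45% ± 0.78 (n = 9) and tenderloin at 5.23% ± 0.90 (n = 10). Every brain library (9.35% or more) and every lymph library (7.57% or more) lay above every loin and tenderloin library (6.78% or less), while neighbours in this order overlapped. As shares of TPM times length, which weigh bases in place of molecules, the means were lower: 5.78% in brain, 5.57% in lymph, 4.40% in backfat, 3.23% in loin and 3.09% in tenderloin. Transcripts with a predicted peptide but no match were also highest in brain, with means of 3.72% there, 3.11% in lymph and 2.35% in backfat. In tenderloin they took 2.18% and in loin 2.04%. The higher share in brain and lymph is thus not particular to the class. Each share is a sum over the chosen transcripts and carries no test.

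How the share was spread over transcripts differed by tissue. In loin 84 transcripts on average (48 to 133) held 50% of the class's TPM, and the 10 most abundant took 27.3% to 37.8%. In brain the corresponding number was 776 (410 to 1089), and the top 10 took 8.02% to 17.0%. The number of transcripts at 1 TPM or more fell from 9738 ± 325 in brain (SD, n = 8) and 8570 ± 827 in lymph to 7473 ± 1255 in backfat, 5677 ± 604 in tenderloin and 5218 ± 313 in loin. As shares these were 67.5% of the class in brain and 36.2% in loin, against 76.3% and 50.1% of the other transcripts. The others fell in the same order of tissues.

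The types overlapped in the share in all 5 tissues. The 5 ET tenderloin libraries held 4.86% to 6.78% and the 5 of the L type 3.82% to 5.09%, with means of 5.83% ± 0.84 and 4.64% ± 0.50 (SD, n = 5 each). In backfat the means were 8.66% ± 1.07 (n = 5) in ET and 9.15% ± 2.66 (n = 4) in L, where S0377 had the lowest value, 5.57%. Split by length, backfat showed 2 opposite patterns. Transcripts of 2000 bases or more took 1.42% to 1.62% of the TPM in ET and 0.81% to 1.41% in L, with no overlap. Those below 500 bases took 2.06% ± 0.42 in ET and 3.03% ± 1.104 in L, and these overlapped, with S0377 again lowest at 1.51%.

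**Figure D3:**
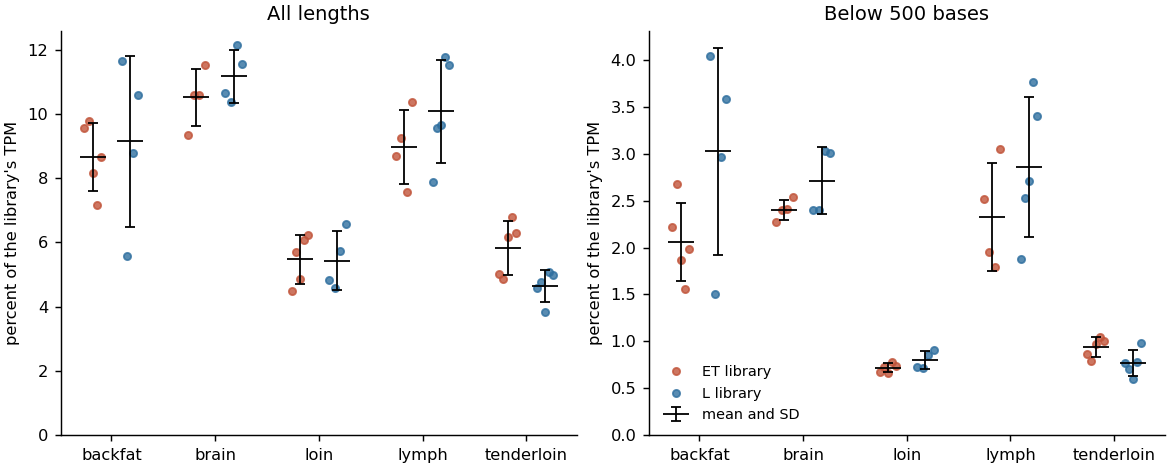
Percent of each kept library's TPM in transcripts without protein hit or predicted peptide, all lengths (left) and those below 500 bases (right), by tissue; points are libraries, red for ET and blue for L, with mean and SD. Brain and lymph libraries lie above all loin and tenderloin libraries, and the types overlap in every tissue.

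The degree to which the transcripts were restricted to a tissue was close to that of other transcripts of the same level. Tau, which is 0 for equal levels in all tissues and 1 for a single tissue, had a median of 0.489 over the 10137 with a mean of at least 1 TPM and 0.442 over the 33487 others. Among transcripts with a mean of 1 to 3 TPM the medians were 0.552 and 0.560, and among those of 3 to 10 TPM 0.430 and 0.431. The class was a little more restricted in higher bands, 0.348 against 0.308 at 10 to 30 TPM and 0.275 against 0.230 at 30 to 100. Brain was the tissue of the highest level for 51.0% of them (50.5% of the others), lymph for 22.6%, backfat for 17.1% (11.0% of the others), tenderloin for 4.76% and loin for 4.57%. The S0377 library is included in these backfat means.

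Transcripts were called enriched in a tissue where limma gave them a mean on log2(TPM + 1) higher by 2 or more than in any other tissue, with Benjamini-Hochberg adjusted p under 0.05 in each contrast over all 43624 transcripts tested. In brain 375 of the 10137 tested were enriched (3.70%), against 5.42% of all transcripts. Lymph had 229 (2.26% against 3.54% of all), backfat 111 (1.095% against 1.14%), tenderloin 11 (0.109% against 0.149%) and loin 7 (0.0691% against 0.0665%). The shares thus lay near or below the background in each tissue. Of the enriched transcripts, 38.4% in brain, 48.0% in lymph and 21.6% in backfat came from an assembly of that same tissue, against 12.1%, 12.4% and 7.10% of the whole class. This was not computed for enriched transcripts outside the class, and the source is not separate evidence of enrichment.

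The enriched transcripts varied widely in level. Spleen.L.NODE_64780 (1876 bases) was a lymph transcript with a lowest, median and highest value of 261, 350 and 549 TPM over 9 lymph libraries, and it did not exceed 2.45 TPM in any other library. Lung.L.NODE_90196 (1258 bases) averaged 269 ± 40.8 TPM in lymph (SD, n = 9), the narrowest spread relative to the mean among the 4 most abundant enriched there, against 10.5 in backfat. Brain.L.NODE_57328 (2783 bases), from a brain assembly, averaged 632 ± 123 in lymph and 103 in backfat.

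In brain, Brain.ET.NODE_117779 (981 bases) had a lowest, median and highest value of 489, 703 and 2588 TPM over 8 libraries, against a mean of 3.69 in backfat, the next tissue. Spleen.ET.NODE_78669 (639 bases) averaged 1003 ± 230 TPM (SD, n = 8) against 21.6 in tenderloin, and Lung.ET.NODE_49807 (1915 bases) 427 ± 247 against 1.73 in lymph. Spleen.ET.NODE_93931 (527 bases) averaged 1174 ± 765 with 93.8 in backfat. Since the brain libraries carry pituitary hormone transcripts at the levels given above, these transcripts belong to the tissue as sampled; which cells hold them was not tested.

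In backfat, Backfat.L.NODE_168996 (271 bases) ranged from 14.2 to 217 TPM in the 5 ET libraries and from 281 to 800 in the 4 of the L type, against a mean of 5.52 in lymph. Lymph.ET.NODE_136942 (656 bases) ranged from 1256 to 6798 TPM in ET and from 651 to 1053 in L, against a mean of 250 in brain. The types thus did not overlap for either, in opposite directions, and neither difference was called (limma adjusted p = 0.0823 and 0.0767). Spleen.L.NODE_141361 (655 bases) averaged 1713 ± 490 TPM (SD, n = 9), against 319 in lymph. The call of Spleen.L.NODE_141361 was lost with median-ratio scaling of the libraries.

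Few transcripts separated the 2 muscles. Loin.ET.NODE_33753 (2070 bases) ranged in loin from 15.6 to 474 TPM, with a median of 203 over 9 libraries, and its tenderloin mean was 5.001. Its loin libraries fell into a low set, S0326 (15.6), S0377 (18.4) and S0385 (18.2), and 6 others at 107 or more, and each set held animals of both types. Tenderloin.ET.NODE_12762 (4716 bases) ranged in tenderloin from 108 to 555 TPM around a median of 204 over 10 libraries, against a mean of 42.8 in loin, and stayed at or below 0.151 TPM outside muscle. Lung.L.NODE_101128 (1092 bases) averaged 29.7 ± 15.8 TPM in loin (SD, n = 9) and 0.923 in tenderloin.

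The types were then compared in each tissue by limma on log2(TPM + 1), over all transcripts with a mean of at least 1 TPM in that tissue. Differences are ET minus L in log2 units with their standard error (SE) and understate the change of transcripts near the pseudocount of 1. A transcript was called at a Benjamini-Hochberg adjusted p under 0.05.

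Calls in this class were made mainly in backfat and loin. In backfat, of 8873 tested, 277 were called (3.12%, against 2.8% of all transcripts), with 159 higher in ET (2.19% of all transcripts were) and 118 lower (0.612% of all). The lower calls were 1.33% of the class and 0.383% of the other transcripts. The median difference was 0.05 in the class and 0.27 over all transcripts tested. Types did not overlap for 802 (9.04%), against 10.2% of all transcripts. With median-ratio scaling between libraries, which moves the median of all transcripts from 0.27 to 0.05, 119 were called higher and 239 lower, so the split between directions depends on the scaling. The count rested on single libraries: it was 44 without S0384, 102 without S0385, 109 without S0326, 135 without S0235 and 171 without S0242, and 414, of which 315 were lower, without S0377.

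In backfat, the transcripts called lower in ET were short. Of the 118, 70 were below 500 bases and the median length was 438, whereas 26 of the 159 called higher were, with a median of 1285 bases. Of the 8873 tested, 2118 were below 500 bases. The median difference of the class moved with length, from -0.47 below 300 bases (690 transcripts) through -0.30 from 300 to below 500 and -0.12 from 500 to below 1000 to 0.17 from 1000 to below 2000, 0.28 from 2000 to below 3000 and 0.36 at 3000 or more (780 transcripts). Other transcripts did not show this order: their medians were 0.52 below 300 bases (46 transcripts), 0.32, 0.24, 0.27, 0.32 and 0.35. The calls among them did vary with length. From 500 to below 1000 bases 32 were lower and 25 higher, and at 3000 or more 23 and 318. From 300 to below 500 bases 3 were lower and 14 higher. Leaving out each library in turn gave class medians of -0.96 to -0.24 below 300 bases and 0.21 to 0.42 at 3000 or more. With median-ratio scaling they were -0.67 and 0.15. A rise with length was also seen outside backfat, over smaller ranges. In lymph the class median was -0.27 below 300 bases and -0.07 at 3000 or more, with each length class above the one before. In loin these were -0.20 and -0.04, in brain -0.30 and -0.18 and in tenderloin 0.17 and 0.21, without a steady order. These medians describe the class and carry no test.

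**Figure D4:**
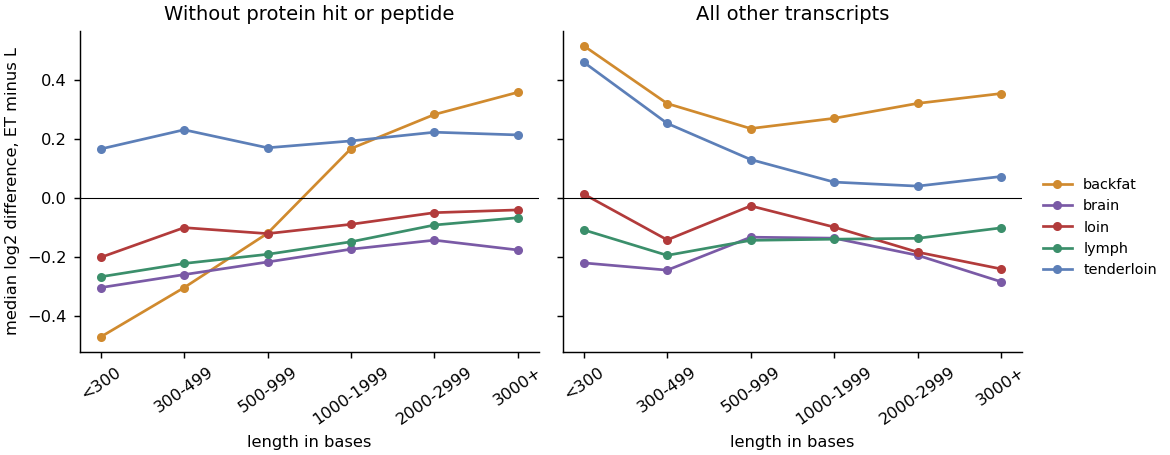
Median log2 difference, ET minus L, by length in bases, for transcripts without protein hit or predicted peptide (left) and all others (right), 1 line per tissue. In backfat the left line climbs from -0.47 to 0.36 and the right line stays above 0. The left lines of the other tissues also end higher than they begin, over smaller ranges.

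The source assembly of the backfat calls differed by direction. Of the 159 higher in ET, 92 came from ET assemblies (57.9%), against 37.6% of the transcripts tested in the class, and 86 of the 118 lower came from L assemblies (72.9%, against 62.4% of those tested). Other transcripts called lower also leaned to L assemblies, with 57.9%, against 53.7% of the others tested. For other transcripts called higher this share was not computed, so the lean of the higher calls has no background. An assembly can hold only transcripts present in its RNA, so the source is not separate evidence of a type difference. Cell type markers differed between the types in the same libraries: the summed level of 5 adipocyte genes was 8009 to 17913 TPM in ET and 478 to 7361 in L, and that of 3 fibroblast genes 6185 to 23079 in ET and 905 to 3552 in L. The 3 red cell genes summed to 95.0 to 647 TPM in ET and 2.92 to 67.5 in L. LEP, the adipocyte hormone leptin, was at or below 0.0281 TPM in every L library, including 0 in at least 1. The part of these differences in the calls was not tested.

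Backfat.ET.NODE_80420 (733 bases) was present in every ET backfat library and nearly absent from those of the L type. Its values in ET were 33.4, 11.9, 26.2, 24.6 and 13.2 TPM in S0235, S0242, S0276, S0309 and S0326, and in L 0, 0, 0.117 and 0 in S0349, S0377, S0384 and S0385. The types did not overlap, and the difference was 4.37 ± 0.37 (SE; limma adjusted p = 0.00496), called in all 14 alternatives tried. The difference was not seen in muscle, where the types overlapped: in loin it held 0.119 to 1.25 TPM in ET and 0.736 to 3.29 in L, and in tenderloin 0.690 to 1.47 and 0.614 to 2.51. Backfat.ET.NODE_111247 averaged 40.8 ± 28.6 TPM in ET (SD, n = 5) and 1.69 ± 1.79 in L (n = 4), and Backfat.ET.NODE_82959 (704 bases) 59.1 ± 47.6 and 1.52 ± 1.05, and both calls also held in all 14 alternatives.

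Lymph.ET.NODE_71127 (1511 bases) showed a larger but uneven difference. Its ET values were 339, 299, 10.6, 95.9 and 331 TPM in S0235, S0242, S0276, S0309 and S0326, and its L values 6.93, 1.09, 5.96 and 9.41 TPM. The ET animal S0276 lay close to the L animals, and the call (4.47 ± 0.95, limma adjusted p = 0.0349) was lost in 10 of 14 alternatives. For Backfat.ET.NODE_73349 (827 bases), at 78.6 ± 61.5 against 3.45 ± 3.45 TPM, it was lost in 5 of 14.

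The transcripts lowest in ET backfat were all below 300 bases, a length at which few reads can give a high TPM. Lung.L.NODE_322195 (287 bases) held 1.13, 6.09, 10.8, 0 and 0.590 TPM in the 5 ET animals and 271, 78.3, 196 and 58.3 in S0349, S0377, S0384 and S0385, a difference of -5.35 ± 0.75 (SE; limma adjusted p = 0.0104). Kidney.L.NODE_466401 (180 bases) was listed at 0 in all 5 ET libraries and at 46.8, 17.99, 41.5 and 5.06 TPM in the L libraries in the same order. In both, the types did not overlap. Backfat.L.NODE_367696 (164 bases, 1.63 ± 2.51 in ET and 57.8 ± 32.1 in L), Lung.ET.NODE_393816 (212 bases, 3.86 ± 4.66 and 87.2 ± 20.03) and Lung.L.NODE_607940 (169 bases, 4.15 ± 6.65 and 77.5 ± 19.6) had the same pattern. Each of these 5 calls was lost when the left-out S0355 backfat library, with its muscle transcripts, was put back. With a pseudocount of 0.1 those of Lung.ET.NODE_393816 and Lung.L.NODE_607940 were lost too, and the latter also without S0384.

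In loin 248 of the 5579 tested were called (4.45%, a larger share than in backfat), against 8.64% of all transcripts and 9.68% of the other transcripts. Higher in ET were 110 (1.97%, against 1.89% of all) and lower were 138 (2.47%, against 6.75% of all). The median difference was -0.09 in the class and -0.17 over all transcripts. Types did not overlap for 417 (7.47%), against 14.9% of all. With median-ratio scaling, which moves the median of all transcripts to -0.04, 135 were called higher and 75 lower. Without S0377 the count was 47, without S0326 70, without S0385 86, without S0309 129, without S0276 145, without S0242 161 and without S0235 164, and 2 were called with the S0355 loin library, with its adipocyte transcripts, put back. The order of the tissues by number of calls depended on the setting: with a pseudocount of 0.1 loin had 200 and backfat 162, and among transcripts of 500 bases or more 203 and 181. Whether the class differs from other transcripts in its share of calls has no test here.

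By source assembly, 71 of the 110 higher came from ET assemblies (64.5%, against 45.1% of those tested) and 84 of the 138 lower from L assemblies (60.9%, against 54.9%). Of the other transcripts called lower, 55.6% came from L assemblies, against 50.5% of the others tested. The lean of the lower calls is thus not particular to the class. For the higher calls the share among other transcripts was not computed. The skeletal muscle genes summed to 76720 to 97928 TPM in ET loin and 47889 to 73657 in L, the red cell genes to 28.8 to 92.0 and 3.10 to 12.7, and the fibroblast genes to 138 to 793 and 108 to 202. None of these genes was at 0 in a loin library. Their part in the loin calls was not tested.

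Heart.L.NODE_53332 (1564 bases) separated the types most in loin. Its ET values were 283, 61.8, 226, 134 and 248 TPM in S0235, S0242, S0276, S0309 and S0326, and its L values 0, 0.364, 0 and 0 in S0349, S0377, S0384 and S0385. The difference was 7.28 ± 0.41 (SE; limma adjusted p = 0.000117), called in all 14 alternatives. In tenderloin the same animals gave 70.0, 345, 516, 560 and 1234 TPM in ET and 71.1, 0.359, 166, 0.642 and 117 in L (S0349, S0355, S0377, S0384 and S0385), so that the types overlapped and the difference of 4.28 ± 1.44 was not called (limma adjusted p = 0.219). S0349 and S0385, at 0 in loin, thus had 71.1 and 117 TPM in tenderloin. The transcript was listed at 0 in every backfat library.

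Brain.ET.NODE_19862 (4918 bases) showed the same pattern. It held 40.2, 41.7, 68.2, 59.0 and 67.0 TPM in the ET loins and 0, 0.0431, 0 and 0 in the L loins, a difference of 5.76 ± 0.20 (SE; limma adjusted p = 2.58e-06). In tenderloin it ranged from 11.6 to 72.3 TPM in ET and from 0.420 to 40.4 in L, and it was present in both types in backfat, brain and lymph, with 1 ET backfat library (S0309) at 0. It was called in loin in 13 of 14 alternatives, the exception being the addition of the S0355 loin library.

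Other loin calls were smaller. Heart.L.NODE_64346 (1228 bases) averaged 26.0 ± 16.1 TPM in ET (SD, n = 5) and 2.57 ± 2.32 in L (n = 4), and Loin.ET.NODE_32934 (2124 bases) 14.02 ± 9.63 and 0.552 ± 0.487. Loin.L.NODE_68456 (932 bases) was lower in ET, at 0, 1.51, 0, 0 and 0 TPM against 8.25, 14.8, 21.2 and 8.15, and its call (-3.45 ± 0.37, limma adjusted p = 0.00539) held in 13 of 14 alternatives. Loin.L.NODE_42232 (1797 bases) shares a locus with a transcript matched to LPIN1, a phosphatidate phosphatase of fat synthesis. It averaged 8.36 ± 11.0 TPM in ET and 137 ± 112 in L with overlapping types, and its call was lost in 11 of 14 alternatives. Backfat.L.NODE_55294 (874 bases) held 35.6, 316, 42.9 and 854 TPM in the L loins against 6.81 to 17.3 in ET, with 9 of 14 alternatives losing the call, and Heart.L.NODE_39825 (2172 bases) held 2.06 ± 2.99 and 35.4 ± 31.0, with 6 of 14.

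Few were called in the remaining tissues. In brain 1 of 10362 was called (0.018% of all transcripts were, and 800 of the class had an unadjusted p under 0.05). In lymph 2 of 9345 were called (0.0128% of all, 358 unadjusted) and in tenderloin 2 of 6155 (0.0167% of all, 862 unadjusted). The unadjusted counts were made for the class only, so they have no background and are not read as a trait of it. Types did not overlap for 458 in brain (4.42%, against 6.12% of all transcripts), 96 in lymph (1.03%, against 0.974%) and 180 in tenderloin (2.92%, against 3.46%). The median differences of the class were -0.20 in brain, -0.15 in lymph and 0.19 in tenderloin, against -0.22, -0.13 and 0.10 over all transcripts, and median-ratio scaling took the last 3 to 0.00, 0.00 and -0.04.

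Lung.L.NODE_218900 (431 bases) was the 1 transcript of the class called in 3 tissues. In lymph it was listed at 0, 0, 0.255 and 0 TPM in the ET animals S0242, S0276, S0309 and S0326 and at 7.49, 5.80, 9.505, 6.99 and 6.20 in the 5 L animals, a difference of -2.94 ± 0.24 (SE; limma adjusted p = 0.00166). In brain the ET values were 0, 0.578, 1.85 and 0 and the L values 25.9, 20.3, 15.7 and 32.6 TPM (-4.03 ± 0.39, limma adjusted p = 0.0288). In loin the L animals held 17.8 to 23.05 TPM and 4 ET animals 0 to 0.492, while the ET animal S0235 held 12.4 (-3.54 ± 0.70, limma adjusted p = 0.0206).

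S0235 stood apart from the other ET animals for this transcript in each of its 3 kept tissues. In tenderloin it held 16.5 TPM, against 0.272 to 0.583 in the other 4 ET animals and 24.0 to 45.6 in the L type, and in backfat 2.24 TPM, against 0 to 0.314 and 0.643 to 5.08. The tenderloin difference (-3.95 ± 0.65) was not called (limma adjusted p = 0.0602), and was called without S0235, with an adjusted p of 1.69e-05. The types did not overlap in brain, loin, lymph or tenderloin. The brain call was lost in 9 of 13 alternatives, among them the omission of any 1 animal other than S0309, and the loin call in 4 of 14, among them the omission of S0326, S0377 or S0385 in loin. The lymph call was lost in 1 of 14, with all libraries.

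Brain.ET.NODE_102143 (1184 bases) was called in both muscles, higher in ET. In loin the ET values were 10.2, 9.06, 12.7, 21.7 and 19.3 TPM and all 4 L values were 0 (3.89 ± 0.26, limma adjusted p = 0.000436, called in all 14 alternatives). In tenderloin they were 14.9, 7.05, 18.9, 16.8 and 14.2 against 1.29, 1.61, 0.940, 0 and 2.31 TPM (2.83 ± 0.34, limma adjusted p = 0.0344, lost in 8 of 14). In brain it was 3.25 to 11.3 TPM in ET and 2.91 to 4.98 in L, which overlap, and in lymph and backfat it did not exceed 1.53.

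**Figure D5:**
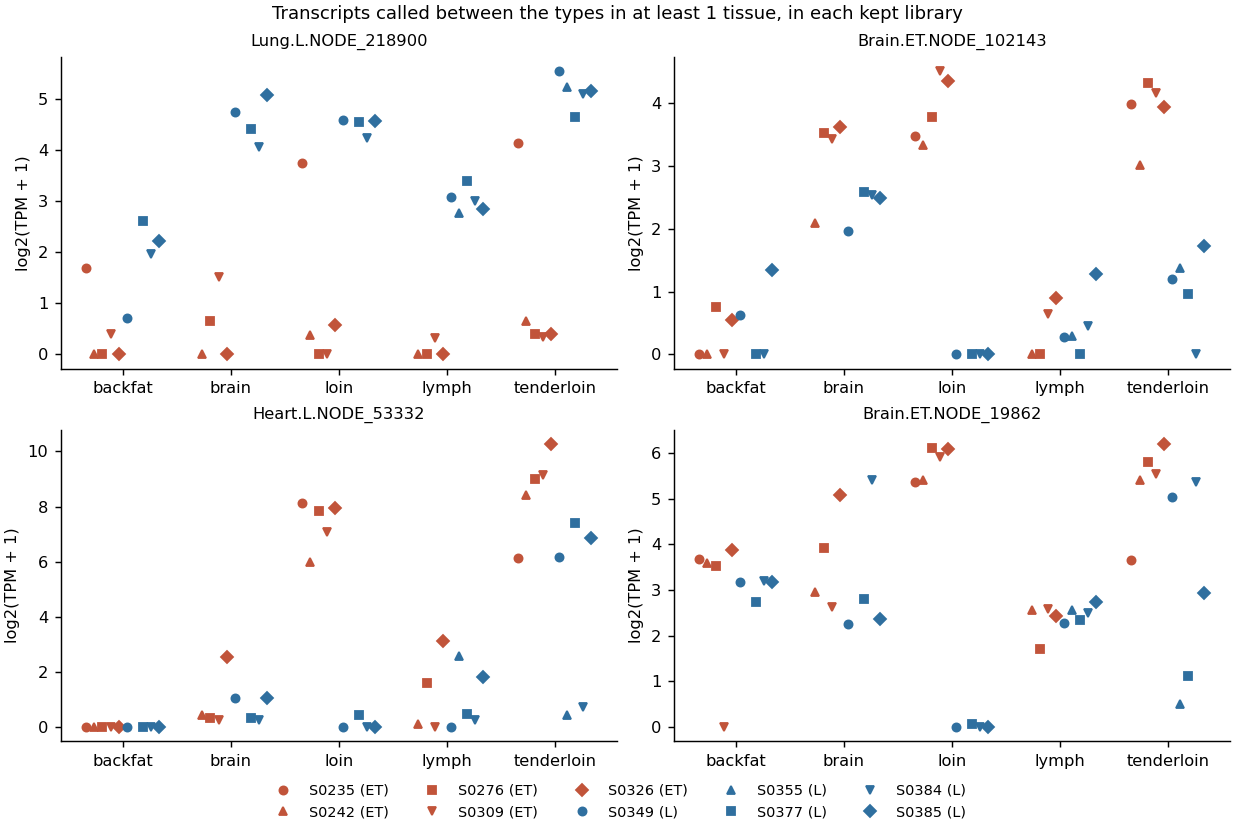
log2(TPM + 1) of 4 transcripts that were called between the types in at least 1 tissue, in each kept library; each symbol is 1 animal, red for ET and blue for L. For Lung.L.NODE_218900 the ET animal S0235 lies near the L animals in loin and tenderloin, and Heart.L.NODE_53332 and Brain.ET.NODE_19862 separate the types in loin and not in tenderloin.

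The second lymph call was Brain.ET.NODE_771215 (160 bases), at 0 in the 4 ET libraries and at 3.88, 5.05, 2.44, 2.58 and 2.38 TPM in the 5 of the L type (limma adjusted p = 0.0400, lost in 12 of 14 alternatives). The second tenderloin call was Kidney.L.NODE_277623 (278 bases), at 0, 0, 2.68, 0 and 0 TPM in ET and 10.6, 15.7, 11.0, 7.17 and 13.3 in L (-3.24 ± 0.38, limma adjusted p = 0.0344, lost in 8 of 14). Close to the threshold in tenderloin was Lung.L.NODE_32788 (3296 bases), with 2.27 ± 0.938 TPM in ET and 26.8 ± 15.8 in L (limma adjusted p = 0.0546).

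No transcript of the class was called between the types over all tissues. The fit used 1 value per animal, the mean deviation from the tissue levels, and called 0 of 10137 by limma, with 1196 at an unadjusted p under 0.05 and 0.00229% of all transcripts called. The unadjusted count was not made over all transcripts. The nearest were Brain.ET.NODE_102143 (1.48 ± 0.21, adjusted p = 0.0864), Heart.L.NODE_53332 (2.62 ± 0.43, adjusted p = 0.104) and Brain.ET.NODE_147146 (735 bases, 1.17 ± 0.19, adjusted p = 0.104), higher in ET, and Lung.L.NODE_218900 (-2.99 ± 0.49, adjusted p = 0.104), lower in ET and called without S0235 (adjusted p = 5.91e-06). Brain.ET.NODE_147146 was higher in every ET library than in every L library in brain (4.53 to 7.28 against 2.16 to 3.30 TPM), lymph (4.23 to 8.34 against 2.27 to 3.73), backfat (4.77 to 11.0 against 0.461 to 3.55) and tenderloin (4.59 to 7.36 against 1.06 to 2.70). In loin, where it was called (limma adjusted p = 0.0417), S0235 (4.07) and S0384 (4.83) overlapped. Across all 45 libraries no transcript of the class had every library of 1 type above every library of the other, as 2 of all 57085 transcripts did.

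Of 519 transcripts of the class called in any tissue, 509 were called in 1 (98.1%), 9 in 2 and 1 in 3. Of all 3385 transcripts called, 3292 were called in 1 (97.3%), 89 in 2 and 3 in 3. Backfat and loin, with most of the calls, shared 8 of the class, of which 5 had the same direction and 3 opposite ones. The calls shared by this pair of tissues were not counted over all transcripts, so these numbers have no background. Lung.ET.NODE_158431, named after its values were seen, was higher in ET backfat (2.39, limma adjusted p = 0.0119) and lower in ET loin (-1.35, limma adjusted p = 0.0273).

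The type difference itself was compared between the muscles of the same animals, 5 ET and 4 L animals with both libraries, in a comparison added after the data were seen. The difference between loin and tenderloin depended on the type for 57 of 5981 (0.953%, against 1.16% of all transcripts), with a loin difference above that of tenderloin for 3 and below for 54. The medians were -0.24 in the class and -0.25 over all transcripts, and of the other transcripts called 18 lay above and 266 below. With median-ratio scaling 3 were called. Without S0326 the count was 1, without S0377 4, without S0309 7, without S0276 9, without S0235 25, without S0384 30 and without S0385 31. Backfat.L.NODE_55294 was among them, at 11.98 ± 3.95 TPM in ET loin against 312 ± 384.03 in L loin and 33.5 ± 14.7 against 63.9 ± 57.6 in tenderloin, with the call lost in 6 of 13 alternatives. Brain.ET.NODE_19862 was the one with the largest positive value, 4.06 (limma adjusted p = 0.0388), lost in 10 of 13.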

How the data were processed

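The authors assembled transcripts and deposited TPM values for 57085 of them in 50 libraries, each column summing to 1000000. Reads were trimmed with Trimmomatic 0.36 and transcript levels estimated with Salmon 1.10.0, according to the labels' list of tools (per the submitters' processing notes). The settings of both are not stated there. The kit was a stranded mRNA kit, per the labels' protocols. Swiss-Prot matches and predicted peptides come from the authors' deposited annotation table, whose E values were used to name loci. TPM keeps no depth, so no counting interval is given, and near-identical transcripts of different assemblies can divide reads.

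Lengths, assembly, locus and coverage were read from transcript names. The 5 libraries named in the report were left out of the main values. Fits on log2(TPM + 1) were made in R 4.3.3 with limma 3.58.1 (trend option on, two-sided), Benjamini-Hochberg adjusted over all transcripts with a mean of at least 1 TPM; figures used matplotlib 3.10.9. Of the fits, that of ET against L within a tissue was tested on simulated data with the levels and spreads of the backfat libraries. Animals pair the tissues, since the labels give 1 animal number for its libraries, and the fit of enrichment had no block as its main form. Alternatives were a pseudocount of 0.1, no filter, median-ratio scaling, no trend, all libraries, each animal left out, and, chosen after seeing the data, only transcripts of 500 bases or more, only those sharing no locus and a share weighted by length. A stricter rule, which also asked for no entry in the Pfam, Infernal and eggNOG columns, gave the same 14432 transcripts. This is not counted as separate evidence.

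Named transcripts are, per tissue, the 5 most abundant and the 4 most abundant enriched, per comparison and direction the 5 calls of largest change with 5 TPM or more in the higher group (or the 3 with the smallest p where under 3 pass), and the 3 longest; the text gives the fullest account of those called in several tissues or settings. The transcripts, marker lists and rule were chosen with earlier results of these data known. The p-values measure the spread between these animals. No matching to known noncoding RNAs was done here, as no sequence was used. The authors' annotation has a column for noncoding RNA families (Infernal), and it was empty for all 14432.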

Additional observations from a re-analysis of the deposited data

Results flagged for a closer look

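In 6 of 80 groups of 4 or 5 libraries of the named transcripts, 1 library stood apart from the rest by Dixon's test. Chance flags about 1 in 20 groups of normally distributed values, a rate that need not hold for TPM near 0. Lung.L.NODE_218900 stood at 12.4 TPM in the loin of the ET animal S0235, while the other 4 ET loins held 0 to 0.492, and at 17.8 in the loin of the L animal S0384, against 22.5 to 23.05 in the other L loins. Lung.L.NODE_607940 stood at 15.8 TPM in the backfat of S0276, against 0 to 2.63 in the other ET animals. Heart.L.NODE_39825 was at 7.32 TPM in the loin of S0309, against 0.0579 to 1.45 in the other ET loins. Loin.L.NODE_68456 was at 1.51 TPM in the loin of S0242 and Kidney.L.NODE_277623 at 2.68 in the tenderloin of S0276, with 0 in the other ET libraries of both. Where all other values are 0, any single value above 0 is flagged.

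For 8 named transcripts the type difference in loin minus that in tenderloin passed the threshold in limma on differences within animals. It was positive for Brain.ET.NODE_19862 (4.06 log2 units), Tenderloin.ET.NODE_209172 (2.73) and Brain.ET.NODE_36335 (1.66). It was negative for Tenderloin.L.NODE_52862 (-3.16), Tenderloin.ET.NODE_43260 (-2.92), Backfat.L.NODE_55294 (-2.80), Loin.ET.NODE_13750 (-2.59) and Heart.L.NODE_62178 (-2.42). Tenderloin.ET.NODE_209172 kept its call in 13 of 13 alternatives. Heart.L.NODE_62178 lost it in 3, Backfat.L.NODE_55294 in 6, Tenderloin.L.NODE_52862 in 7, Brain.ET.NODE_19862 in 10, Tenderloin.ET.NODE_43260 and Loin.ET.NODE_13750 in 12 each and Brain.ET.NODE_36335 in all 13. Tenderloin.ET.NODE_209172 (270 bases) was at 0 in all 4 L loins and at 2.42 to 8.57 TPM in the 5 L tenderloins.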

How the results depend on the processing

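In the comparisons of the types, named transcripts kept their direction in every alternative run: 601 alternative values kept their side of the threshold, 160 fell below it, 11 passed it and 0 reversed. The 601 include transcripts not called in the main fit that stayed uncalled. Since the transcripts were named for a large change or small p in the main fit, and most libraries recur, reversals were unlikely from the start. The enrichment calls of Spleen.ET.NODE_100070 in lymph and Tenderloin.ET.NODE_77384 in loin were lost with all libraries. Counts moved more. With a pseudocount of 0.1 calls between the types numbered 162 in backfat, 200 in loin, 0 in brain, 7 in lymph, 0 in tenderloin and 24 for loin minus tenderloin, and enriched transcripts 744 in brain, 397 in lymph, 204 in backfat, 26 in tenderloin and 18 in loin. Without the filter they were 169 in backfat, 117 in loin, 1 in lymph, 0 in tenderloin and 4 for loin minus tenderloin. Median-ratio scaling gave 0 in tenderloin, 3 for loin minus tenderloin, and 144 enriched in brain, 13 in loin and 17 in tenderloin. With all libraries the calls were 0 in brain, 0 in lymph, 131 in backfat and 2 in loin, with 56 enriched in backfat and 17 in tenderloin, a share of 6.67% in L loin, and 9038, 9602 and 5950 transcripts detected in ET brain, L brain and L loin. Restricted to 500 bases or more, calls were 181 in backfat, 203 in loin, 0 in brain, 0 in lymph and 1 in tenderloin, and 66 were enriched in backfat. At 1 log2 unit brain had 1466 enriched, lymph 630, backfat 419, tenderloin 73 and loin 59. Over all transcripts these were 7125, 3233, 1578, 401 and 316, so such moves are not particular to the class. Backfat calls over all transcripts went from 1031 to 672 with a pseudocount of 0.1, 618 without the filter and 640 with all libraries. Loin calls over all transcripts went from 2434 to 1282 without the filter and 6 with all libraries.

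Weighted by length, the shares in ET and L were 4.40% and 4.38% in backfat, 5.74% and 5.83% in brain, 3.32% and 3.12% in loin, 5.35% and 5.74% in lymph and 3.44% and 2.73% in tenderloin. At 0.1 TPM, 11141 and 10185 transcripts were detected in backfat, 12429 and 12609 in brain, 9880 and 9910 in loin, 11769 and 12123 in lymph and 10459 and 10205 in tenderloin. The median tau was 0.343 in the class and 0.297 in the others with a pseudocount of 0.1, and 0.550 and 0.502 without the filter.

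Leaving out 1 library at a time, calls ranged from 44 to 414 in backfat, 0 to 6 in brain, 47 to 220 in loin, 1 to 3 in lymph, 0 to 6 in tenderloin, 0 to 4 over tissues and 1 to 61 for loin minus tenderloin, with the libraries named in the report; of the 277 backfat calls 41 remained without S0384, and of the 248 loin calls 45 without S0377. Calls over all transcripts are not given for these omissions, so the ranges are not read as a trait of the class. Such omissions gave shares of 8.31% to 10.3% in L backfat and detected numbers of 6587 to 7936 there. With the animal as a replicate block, brain had 370 enriched, lymph 236, backfat 107, tenderloin 11 and loin 7, which changed no count by over 1.5 times; no block was possible between types, which share no animal. TPM without depth leaves low levels without a counting error.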

Other observations

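The 5 libraries left out held shares of TPM in this class of 5.55% (S0355 backfat), 8.34% (S0235 brain), 8.31% (S0355 brain), 11.6% (S0355 loin) and 9.91% (S0235 lymph). The S0355 loin value lies above all 9 kept loin libraries (4.49% to 6.57%), the S0355 backfat value below all 9 kept backfat libraries, whose lowest is 5.57%, and both left-out brain values below all 8 kept ones, whose lowest is 9.35%.

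Some transcripts were low in a single animal in each tissue where they were measured well. Among the 756 of the class with a median of at least 10 TPM in 3 or more tissues, an animal lay more than 4 times below the median of the other animals in each such tissue for 75 pairs of transcript and animal out of 6323 evaluated (1.19%), involving 52 transcripts. It lay more than 4 times above that median in each such tissue for 2 pairs. Other transcripts gave 643 low and 34 high pairs of 59598 (1.08% low). By animal the low pairs of the class numbered from 3 (S0235, with 275 transcripts evaluated) to 13 (S0377, with 756), and both types had them. This count was chosen after seeing the data and carries no test.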
